A study of Mus musculus with 7 samples.

Results

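The integrin subunit genes Itga1, Itga3, Itga5, Itga6, Itga8, Itgav, Itgb1, Itgb3, Itgb4 and Itgb5 were followed in sorted lung endothelium of mouse embryos. They were taken by gene symbol, and all 10 were found among 22180 genes with a probe set of exactly 1 symbol. All 10 also passed the filter on dim genes, which kept 16637 genes. A gene with several such probe sets was represented by the one with the highest mean over the 7 arrays, which mattered for Itgav alone among these genes.

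The samples were lung endothelial cells from E18.5 embryos (shortly before birth) on a C57BL/6 background, with no treatment named, sorted as viable cells positive for CD31 and negative for CD45 and CD326. One group of 3 arrays, W1 to W3, was labelled wild-type, from littermates. The other group of 4 arrays, K1 to K4, was labelled Sash1-knockout, with the genotype Sash1-/-. Values are given in that order, with the replicate numbers of the labels. The labels name no driver or cell type for the deletion, and separate embryos or litters are not stated, so p-values measure only the spread between these arrays, which may be technical.

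Integrins are cell surface receptors made of 1 alpha and 1 beta chain that bind proteins of the extracellular matrix outside the cell and link them to actin inside it. The alpha chain largely sets which matrix protein is bound, while the tail of the beta chain recruits talin and kindlin, which switch the receptor to its binding state. In endothelium, receptors built on the Itgb1 chain hold cells to collagen, laminin and fibronectin, and those built on Itgav with Itgb3 or Itgb5 bind vitronectin and take part in vessel growth.

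No integrin passed the test between the labels. The integrins differed in how far each varied from array to array. Itga5, Itga6, Itga1 and Itgb1 stayed within a narrow band, with an SD over the 7 arrays of 0.10, 0.16, 0.18 and 0.18 log2 units. Itgb3, Itgb4 and Itgb5 ranged widely, with an SD of 0.49, 0.49 and 0.46, against a median of 0.20 over all genes tested. Values are RMA log2 signals, on which a difference of 1 is a doubling, and levels of different genes are not set against each other because each probe set has its own response.

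The bases before the start of Itgb5 and of Itga5 are shown as the regulatory sequence of the integrins with the widest and the narrowest spread among those with a promoter entry. Itgb3 and Itgb4, which spread slightly more than Itgb5, had none. Both are the 250 bases before the start site in RefSeq, build GRCm38.p6, written 5′ to 3′ on the gene's own strand, with capitals marking each GC box (GGGCGG on either strand). Itgb5 lies on the plus strand at chr16:33829415-33829664 and Itga5 on the minus strand at chr15:103366792-103367041.
Itgb5: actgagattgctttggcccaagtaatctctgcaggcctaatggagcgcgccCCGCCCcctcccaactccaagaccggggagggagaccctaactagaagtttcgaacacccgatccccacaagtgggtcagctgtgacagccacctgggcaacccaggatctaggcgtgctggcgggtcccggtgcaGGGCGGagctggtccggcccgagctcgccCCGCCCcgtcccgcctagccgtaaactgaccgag
Itga5: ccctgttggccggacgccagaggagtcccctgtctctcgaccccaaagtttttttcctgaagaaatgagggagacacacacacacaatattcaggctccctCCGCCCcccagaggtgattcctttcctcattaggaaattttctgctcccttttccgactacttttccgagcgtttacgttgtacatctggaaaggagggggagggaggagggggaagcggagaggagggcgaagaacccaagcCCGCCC
The Itgb5 window held 3 GC boxes and the Itga5 window 2, and 32.7% of the 32851 windows of this length held at least 1. Neither window held the AP-1 motif TGANTCA or the ETS motif CCGGAAG on either strand, which 6.75% and 6.91% of all windows held, and the motifs searched do not overlap in these windows. Windows were found for 7 of the 10 integrins, and Itga6 was the other one without an entry. A match or its absence describes these letters only.

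Sash1 itself was measured first, as a check of the labels. Its log2 signal was 9.02, 8.73 and 8.33 on W1 to W3 and 8.29, 8.21, 8.68 and 8.13 on K1 to K4. The difference was -0.37 (95% confidence interval -0.83 to 0.10, adjusted p = 0.971 in limma), so the knockout-labelled level was 77.6% of the wild-type-labelled level (56.3% to 107%) and did not pass the test. All K arrays kept a Sash1 signal of at least 8.13. W3 lay near the K values and K3 near W2, so W and K stand for the labels only, and each integrin's difference is given with and without these 2 arrays. The removed stretch of Sash1 is not stated, and signal from outside it would be no check of the labels. Pecam1, which encodes CD31, ranged from 11.03 to 11.21 over the arrays, and the mean of the 20 endothelial markers was 10.03, 10.01 and 10.06 on W1 to W3 and at most 10.13 on K1 to K4. W1, W2 and K3 lay on 1 side of the first principal component, which held 36.5% of the variance, and the other 4 arrays on the other side. W3 and K3 were picked by their Sash1 values in these same data. Without them the labels match this split exactly, so for differences given there the label and the split cannot be told apart. Correlations between arrays over 41345 probe sets lay between 0.964 and 0.980, and no array was a copy of another, with at most 11.3% of probe sets equal in any pair.

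**Figure D1:**
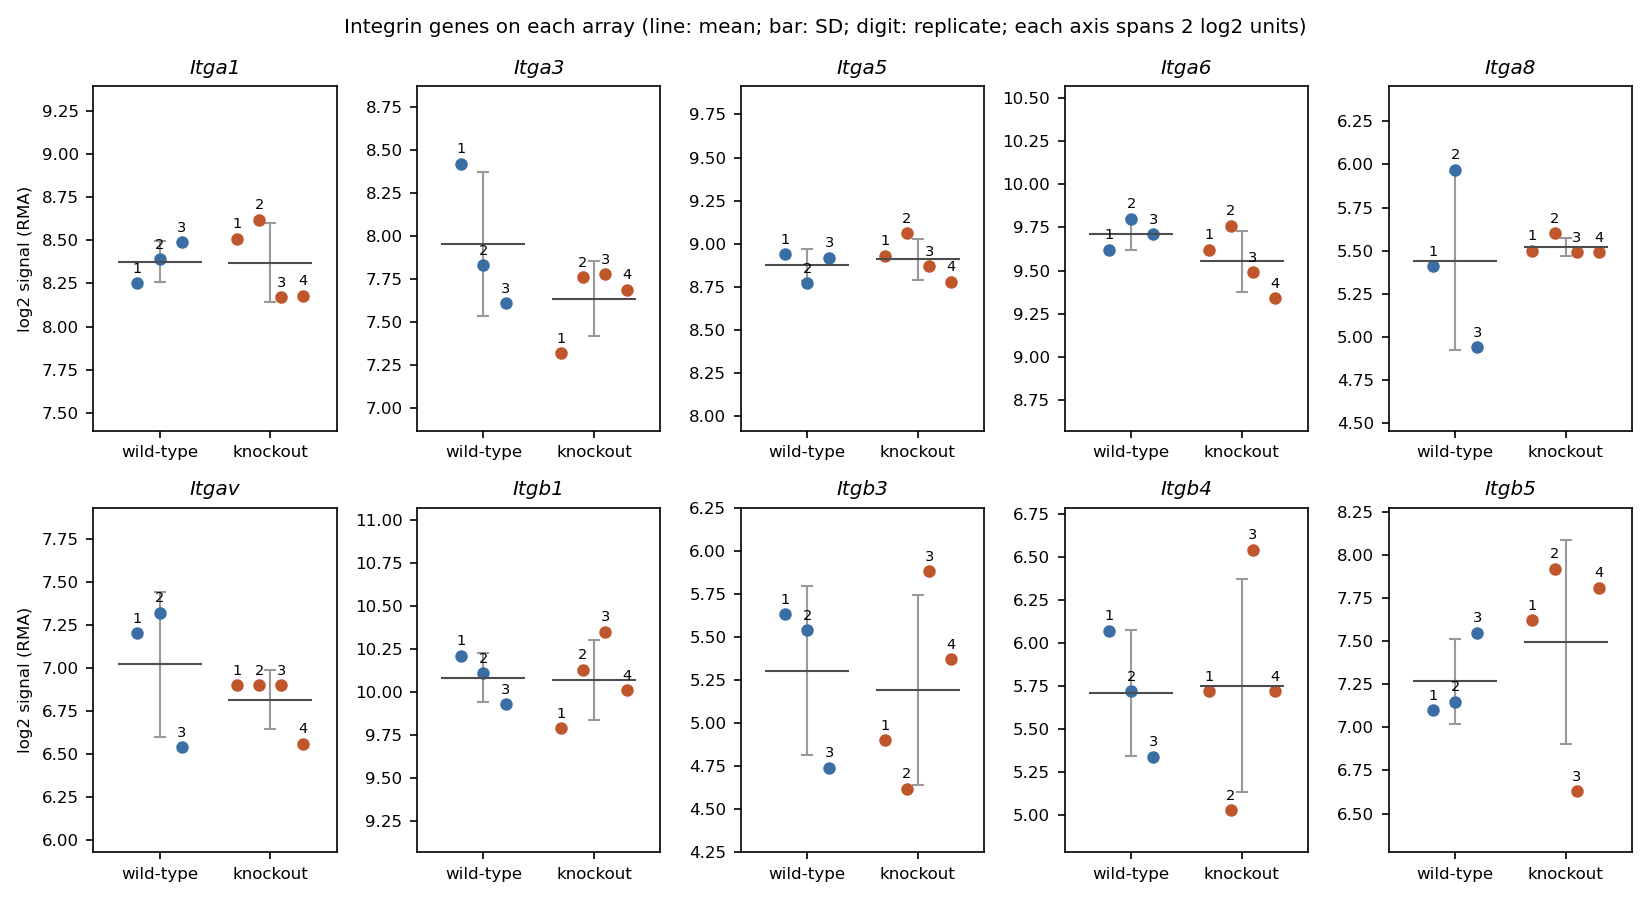
Log2 signal of the 10 integrin genes on each array, with blue points for arrays labelled wild-type (n = 3), orange points for those labelled knockout (n = 4), digits for the replicate, lines for the group mean and bars for the SD. The labels overlap in every panel, and Itga5 is the tightest, between 8.77 and 9.06, while Itgb5 reaches from 6.63 to 7.92.

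Itgb1 encodes the beta chain shared by most matrix receptors of endothelium. Its values were 10.21, 10.11 and 9.93 on W1 to W3 and 9.79, 10.13, 10.35 and 10.01 on K1 to K4. Both the lowest and the highest array, K1 and K3, carried the knockout label, so the W values lay inside the K range. The difference, knockout-labelled minus wild-type-labelled means, was -0.01 (SE 0.15, 95% confidence interval -0.36 to 0.33), a sign that turned under median centring. It was -0.18 (-0.53 to 0.16) without W3 and K3.

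Itga5 encodes the alpha chain that joins Itgb1 in the main fibronectin receptor. It was at 8.94, 8.77 and 8.92 on W1 to W3 and at 8.93, 9.06, 8.87 and 8.78 on K1 to K4. Its highest and lowest values, on K2 and W2, were 0.29 log2 units apart, and only 12.6% of all genes tested had a smaller SD. The difference was 0.03 (SE 0.10), so the knockout-labelled level was 102% of the wild-type-labelled level with a 95% confidence interval of 87.2% to 120%. It was 0.07 (-0.26 to 0.40) without W3 and K3.

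Itga1 encodes a collagen-binding alpha chain that pairs with Itgb1. Its values were 8.25, 8.39 and 8.49 on W1 to W3 and 8.51, 8.62, 8.17 and 8.18 on K1 to K4. The K arrays fell into a higher pair and a lower pair on either side of the W values. The difference was -0.01 (95% confidence interval -0.34 to 0.33), a sign that turned under quantile normalization and median centring, and 0.12 (-0.31 to 0.54) without W3 and K3.

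Itga6 encodes a laminin-binding alpha chain that can pair with Itgb1 or with Itgb4. It was at 9.62, 9.80 and 9.71 on W1 to W3 and at 9.62, 9.76, 9.49 and 9.34 on K1 to K4. K4 and K3 were below all W arrays, while K1 and K2 lay among them. The difference was -0.16 (SE 0.12, 95% confidence interval -0.44 to 0.12), and -0.14 (-0.55 to 0.28) without W3 and K3.

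Itga3 encodes another laminin-binding alpha chain, a partner of Itgb1 that is also prominent in epithelium. Its values were 8.42, 7.83 and 7.61 on W1 to W3 and 7.32, 7.76, 7.78 and 7.69 on K1 to K4. W1 stood above the other 6 arrays and K1 below them. The difference of -0.32 (SE 0.21, 95% confidence interval -0.81 to 0.18) had the largest size among the integrins, and it was -0.08 without W1 and -0.54 (-1.15 to 0.08) without W3 and K3.

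Itga8 encodes an alpha chain of mesenchymal cells that pairs with Itgb1 and binds nephronectin. It was at 5.41, 5.97 and 4.94 on W1 to W3 and at 5.50, 5.60, 5.49 and 5.49 on K1 to K4. The W arrays held both extremes, and their SD was 0.52 against 0.05 on K1 to K4. The difference was 0.08 (95% confidence interval -0.44 to 0.60) and turned to -0.16 (-0.65 to 0.33) without W3 and K3. The gene that encodes nephronectin, Npnt, was at 7.16, 7.13 and 6.01 and at 6.84, 6.30, 7.68 and 6.82. Npnt shared its lowest array, W3, with Itga8, but not its highest, which was K3.

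Itgav encodes the alpha chain of the vitronectin receptors, which also bind and activate latent TGF-beta. Its values were 7.20, 7.32 and 6.54 on W1 to W3 and 6.90, 6.90, 6.90 and 6.56 on K1 to K4. W1 and W2 were above all K arrays, and W3 was the lowest of all. The difference was -0.20 (SE 0.20, 95% confidence interval -0.68 to 0.27), and -0.47 (-0.85 to -0.09, adjusted p = 0.371 in limma) without W3 and K3. Leaving out W2 alone brought it to -0.06, and leaving out W3 alone to -0.45. A second Itgav probe set, not used here because it was dimmer, differed by -0.01.

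Itgb3 encodes a beta chain that pairs with Itgav on endothelium and with Itga2b on platelets. It was at 5.63, 5.54 and 4.74 on W1 to W3 and at 4.90, 4.62, 5.88 and 5.37 on K1 to K4. Each label held both high and low arrays, with K3 highest and K2 lowest, 1.26 log2 units apart. The difference was -0.11 (SE 0.34, 95% confidence interval -0.92 to 0.70). Without W3 and K3 it was -0.62 (-1.24 to 0.00, adjusted p = 0.469 in limma).

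Itgb5 encodes the other Itgav partner that binds vitronectin. Its values were 7.10, 7.15 and 7.55 on W1 to W3 and 7.62, 7.92, 6.63 and 7.81 on K1 to K4. All of the K arrays but K3 were above every W array, and K3 was below all of them. The difference was 0.23 (SE 0.32), so the knockout-labelled level was 117% of the wild-type-labelled level, with a 95% confidence interval of 70.1% to 196%. It was 0.09 without K2 alone, 0.52 without K3 alone, and 0.66 (0.34 to 0.97, adjusted p = 0.273 in limma) without both W3 and K3.

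Itgb4 encodes the long-tailed beta chain that joins Itga6 in the laminin receptor of hemidesmosomes, the anchoring plaques of epithelia. It was at 6.07, 5.72 and 5.34 on W1 to W3 and at 5.72, 5.03, 6.54 and 5.72 on K1 to K4. As for Itgb3, K3 was highest and K2 lowest, here 1.51 log2 units apart. The difference was 0.04 (SE 0.35, 95% confidence interval -0.77 to 0.86) and turned to -0.41 (-1.11 to 0.30) without W3 and K3.

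In all, 4 of the 10 integrins had positive and 6 negative differences, with a median of -0.01, and under median centring Itga1 and Itgb1 became positive. Over all genes tested 54.4% of differences were positive and the median was 0.02 (0.07 under median centring). None of the integrins was called at an adjusted p under 0.05 in limma (adjusted p of 0.971 to 1), and of all 16637 genes tested 0, or 0%, were called. At an unadjusted p under 0.05 there were 0 of 10 integrins and 556 genes, or 3.34%. The labels did not overlap for 0 of 10 integrins and for 408 genes, or 2.45%. Without W3 and K3, Itgb3, Itga3, Itgb5 and Itgav did not overlap, 4 of 10 against 24% of all genes. Itgb5 and Itgav had an unadjusted p under 0.05 there, 2 of 10 against 10.7% of all genes, and 0% of all genes were called. The labels of the arrays kept match the split on the first principal component. With fewer arrays, the labels also separate more often by chance, so the shares without overlap are not set against those over all arrays. What raised the shares was not tested.

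**Figure D2:**
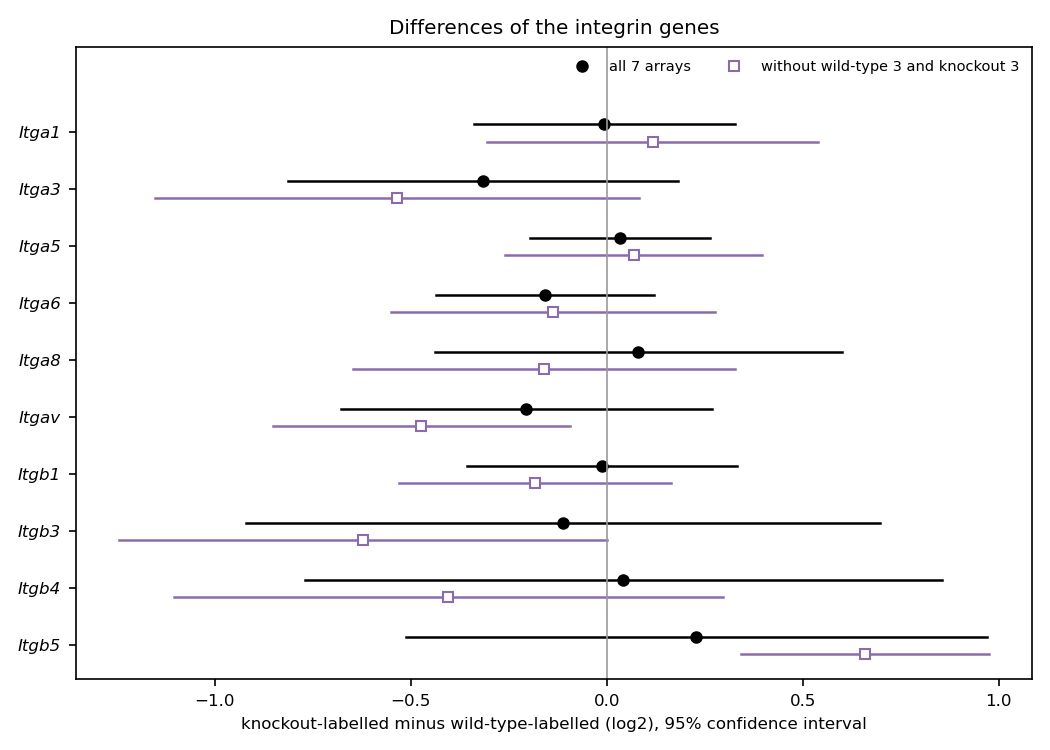
Knockout-labelled minus wild-type-labelled difference of each integrin in log2 units, with its 95% confidence interval from limma, over all 7 arrays (black circles, 3 against 4) and without W3 and K3 (open squares, 2 against 3). All intervals over the 7 arrays cross 0, and without those 2 arrays the intervals of Itgav (-0.85 to -0.09) and Itgb5 (0.34 to 0.97) do not. Those 2 arrays were picked by their Sash1 values, and the labels of the remaining arrays match the split on the first principal component.

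Itgb3 and Itgb4 shared their highest and lowest arrays, K3 and K2, and Itgb5 had the opposite extremes. K3 had the highest values of Itgb1, Itgb3 and Itgb4 and the lowest of Itga1 and Itgb5, and K2 had the highest of Itga1, Itga5 and Itgb5 and the lowest of Itgb3 and Itgb4. Immediate early genes, which switch on within minutes of stress or stimulation and rise when tissue is dissociated, differed between the same arrays. The mean of the 23 tested was 8.42, 8.27 and 7.11 on W1 to W3 and 7.90, 7.07, 8.58 and 6.65 on K1 to K4. Between the labels 3 of them had positive and 20 negative differences, with a median of -0.42, and 0 were called. Itgb5 was lowest on the 3 arrays with the highest immediate early mean, K3, W1 and W2, and Itgb3 was highest on these same 3. The order did not hold throughout, as K4 had the lowest immediate early mean but Itgb3 at 5.37, above 4.90 on K1. The same 3 arrays lay on 1 side of the first principal component. They also had the highest means of the 10 integrins and of the 8 mesothelium genes tested. The same held for the leukocyte, platelet, matrix ligand and integrin surface partner lists described below. The part of immediate early genes in the differences was not tested.

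**Figure D3:**
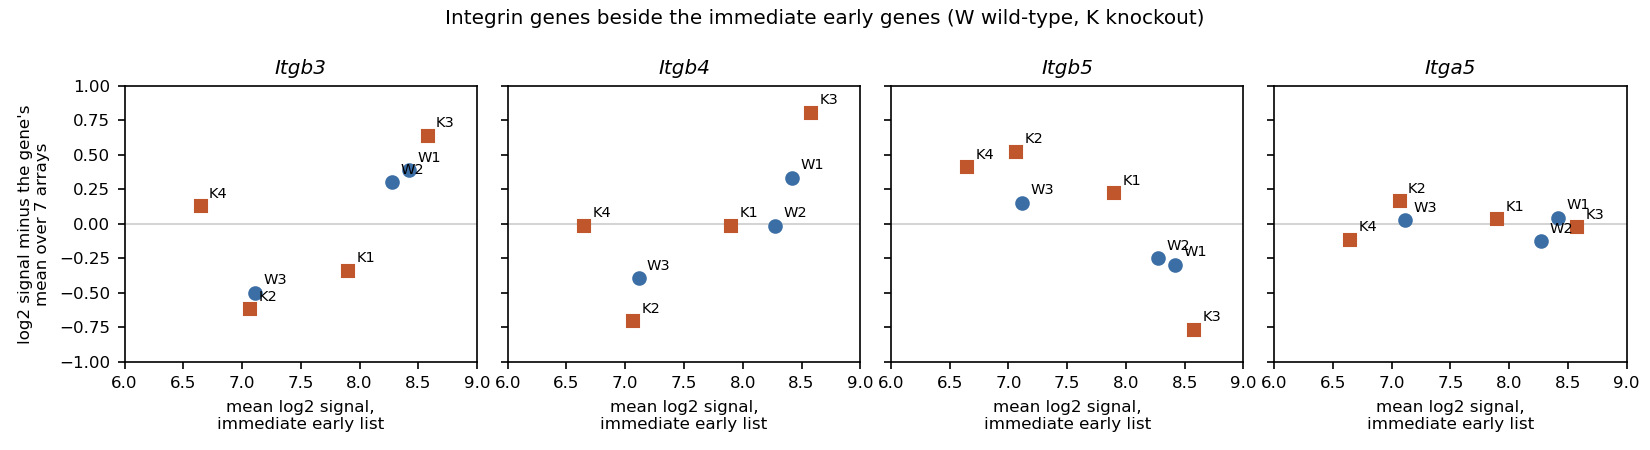
Log2 signal of Itgb3, Itgb4, Itgb5 and Itga5, each minus its own mean over the 7 arrays, against the mean log2 signal of the immediate early list on the same array (W, wild-type label, blue circles; K, knockout label, orange squares; 1 point per array). On K3, with a list mean of 8.58, Itgb3 and Itgb4 are highest and Itgb5 is lowest, while Itga5 stays near 0 on every array. K4 has the lowest list mean, 6.65, but Itgb3 and Itgb4 are not lowest there.

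Markers of other cell types also varied between the arrays, among them epithelium, which the sort was set to remove, and platelets, which carry CD31. Differences between the labels were negative for 15 of 20 lung epithelium, 9 of 9 platelet and 18 of 19 leukocyte genes. They were positive for 15 of 19 fibroblast and mural genes and for 54.4% of all genes tested. In these lists 0 genes were called, and genes of 1 list are not independent. The lung epithelium median of -0.26 turned to 0.02 without W1 and to 0.06 with the replicate number as a fixed block. The platelet median was -0.18 (-0.045 without W1) and the leukocyte median -0.295 (-0.09 with the fixed block). That of the fibroblast and mural genes was 0.13 (0.03 without K1). The 20 lung epithelium genes averaged 7.08 to 8.26 on W1 to W3 and 6.50 to 8.08 on K1 to K4, highest on W1 and K3, the arrays with the 2 highest Itgb4 values. Their mean was lowest on K4, where Itgb4 was 5.72 as on W2 and K1, while Itgb4 was lowest on K2. Epcam, which encodes CD326, ranged from 4.06 to 5.31, and none of the 20 was called. The surfactant gene Sftpc lay between 11.86 and 12.00 on all arrays but K4, where it was 10.20. The 9 platelet genes tested averaged 4.65 to 5.27 and 4.35 to 5.15, again highest on W1 and K3, which also had the 2 highest values of Itgb3. The platelet mean too was lowest on K4, where Itgb3 was 5.37, while Itgb3 was lowest on K2. Pf4, a platelet chemokine, ranged from 4.64 to 6.44, and Itga2b, the platelet partner of Itgb3, from 4.12 to 4.32. Itga2b was among the dimmest 50% of genes, so its range is not set against that of Pf4. The 19 fibroblast and mural genes averaged 6.71 to 7.10 and 6.78 to 7.22, with Pdgfra from 5.66 to 7.46. Their mean and Itga8 were both highest on W2 and lowest on W3 among the W arrays, while Pdgfra was lowest on W1, and on K1 to K4 Itga8 stayed between 5.49 and 5.60. In bulk samples fewer cells of a type and less RNA per cell cannot be told apart, and the part of these markers in the integrin values was not tested.

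For the 3 integrins with the largest spread, the genes of most similar pattern were those with the smallest root mean square distance over the 7 arrays after each gene was centred on its own mean. For Itgb3 these were Fkbp14 (0.13 log2 units), Morrbid (0.13) and Hrct1 (0.14). For Itgb4 they were Plac9a (0.13), Morrbid (0.14) and Prrx2 (0.14). Fkbp14, a chaperone of collagen folding, was at 6.71, 6.45 and 5.83 on W1 to W3 and at 5.59, 5.64, 6.96 and 6.31 on K1 to K4. Like Itgb3 it was highest on K3. For Itgb5 the nearest were Pfkm (0.13), Unc5a (0.13) and Vxn (0.14). Pfkm, a phosphofructokinase of glycolysis, was at 4.37, 4.49 and 4.58 and at 4.73, 5.24, 3.89 and 4.83, highest on K2 and lowest on K3 as Itgb5 was. With 7 arrays and 16637 genes such matches are a description only.

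Other integrin chains were measured in 14 of 16 listed genes, of which 6 had positive and 8 negative differences and 0 were called in either direction (0% of all genes). Their median was -0.02. Itga2, another collagen-binding partner of Itgb1, differed by -0.03 (95% confidence interval -0.45 to 0.39) and Itga9, a chain of lymphatic valves, by -0.11 (-0.71 to 0.48). Itga4, which binds VCAM1 and fibronectin, ranged from 5.51 to 6.97 and differed by 0.26 (-0.56 to 1.08). Like Itgb5 it was highest on K2. The leukocyte chain Itgb2 differed by -0.47 (-1.26 to 0.31; -0.20 without K4) and was lowest on K4, where Ptprc, which encodes CD45, was also lowest at 3.51. The mean of the 19 leukocyte genes tested, Itgb2 among them, was 5.71 to 6.35 on W1 to W3 and 5.08 to 6.17 on K1 to K4. Itga2b differed by -0.05 and Itgb8, an Itgav partner that activates TGF-beta, by 0.09 (-0.09 to 0.28). Both were among the dimmest 50% of genes.

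Of 34 matrix ligand genes tested, 16 had positive and 18 negative differences, 0 were called, and the median was -0.01. Fn1, which encodes fibronectin, the ligand of the Itga5 receptor, was at 9.77, 10.63 and 9.97 on W1 to W3 and at 9.88, 9.65, 10.23 and 10.61 on K1 to K4. It differed by -0.03 (95% confidence interval -0.70 to 0.64), with both labels covering nearly the same range. Col4a1, a chain of basement membrane collagen, lay between 9.86 and 10.12 on all arrays, with a difference of 0.03 (-0.17 to 0.24). The endothelial laminin chains Lama4 and Lama5 differed by 0.09 (-0.40 to 0.58) and -0.12 (-0.47 to 0.24). Tnc, which encodes tenascin C, differed by 0.34 (-0.10 to 0.77; 0.11 without W3) and Npnt by 0.14 (-0.78 to 1.07). Vtn, which encodes vitronectin, was at 4.00 on 5 arrays, 4.10 on K2 and 4.59 on K1, with a difference of 0.17 (-0.19 to 0.54), or 0.03 without K1. It too was among the dimmest 50% of genes.

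Of 37 genes for the adaptors that couple integrins to actin, 16 had positive and 21 negative differences, 0 were called, and the median was -0.04. Tln1, which encodes talin, the activator that binds beta chain tails, differed by 0.10 (95% confidence interval -0.09 to 0.29), and Fermt2, which encodes the kindlin of endothelium and other adherent cells, by -0.04 (-0.30 to 0.22). Vcl and Pxn, for the adhesion plaque proteins vinculin and paxillin, differed by -0.07 (-0.31 to 0.17) and -0.08 (-0.26 to 0.11). All 4 had a range of at most 0.40 log2 units over the 7 arrays. Of 20 genes for surface proteins that associate with integrins, 7 had positive and 13 negative differences, 0 were called, and the median was -0.05. The tetraspanin genes Cd9, Cd81 and Cd151, whose products gather integrins in the membrane, differed by -0.02, 0.01 and 0.03, and Cd47, a partner of the Itgav receptors, by -0.15 (-0.42 to 0.13). Of these, Cd9 and Cd151 were lowest on W3 and had the wider ranges, 0.89 and 0.78 log2 units.

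**Figure D4:**
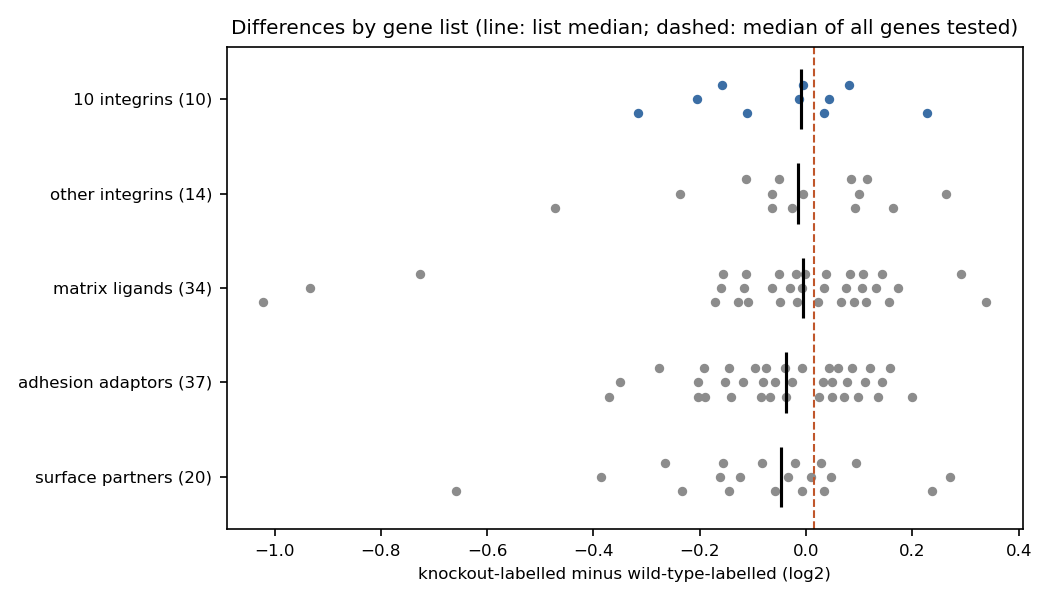
Knockout-labelled minus wild-type-labelled difference of each gene tested, in log2 units, for the 10 integrins (blue), other integrins, matrix ligands, adhesion adaptors and integrin surface partners (grey), with the number of genes in brackets. Black lines mark list medians, from -0.05 to -0.01, and the dashed line the median of all genes tested, 0.02. Under median centring all 5 list medians were positive, from 0.01 to 0.05, against 0.07 for all genes.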

How the data were processed

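Gene expression was measured on 7 one-colour Affymetrix arrays. The deposited values are log2 signals; per the submitters' processing notes they were made with RMA in Affymetrix Expression Console 1.1, and their range (0.32 to 13.7) gave the log2 scale. The genome build behind the array annotation is not given in the sources used here. Probe sets were named through GEO's platform annotation (23521 with 1 symbol, 1814 with several, 16010 with none listed), updated through RefSeq GRCm38.p6, where 99.2% of gene identifiers were found. The dimmest 25% of genes (5543, mean below 2.98) were left out. Groups were compared with limma 3.58.1 in R 4.3.3 (lmFit and eBayes, two-sided, Benjamini-Hochberg over all genes, called at 0.05), and the script was tested on simulated data. Arrays carry no read depth; their number limits the precision, with a median 95% interval of 0.35 log2 units to either side.

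The integrins, lists, tests and alternatives were chosen with earlier results of these data known. Named genes were the 10 integrins, Sash1, sorting and cell type markers, pathway genes picked by role, and the 3 nearest genes in pattern for the 3 most variable integrins. Ptk2 and Ilk were in that rule but had no probe set of 1 symbol and are not analysed here. Alternatives covered the filter, scaling, variance moderation, array weights, probe set choice, the replicate number as a block, the threshold and arrays left out.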

Additional observations from a re-analysis of the deposited data

Results flagged for a closer look

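Of 61 sets of 4 knockout-labelled values examined (the genes named and the list means), 11 held an array that stood apart from the other 3 by Dixon's criterion. Chance gives about 5% for continuous values, and the sets are not independent. Some sets, such as those of Itgav and Itga2b, held equal values on the other 3 arrays, which raises the criterion, so 11 cannot be set against 5%. Among the integrins these were Itgav on K4, at 6.56 below 6.90 on each of the others, and Itga8 on K2, at 5.60 above 5.49 to 5.50. K4 also stood apart below the others for Itgb2 (4.41), Ptprc (3.51), Epcam (4.06) and Sftpc (10.2), a surfactant gene of alveolar epithelium. K2 stood apart below the others for Itga2b (4.12), Itga9 (5.11) and Pxn (7.50). Vtn stood apart above the others on K1 (4.59), and the mean of the integrin surface partners on K3 (8.42).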

How the results depend on the processing

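No alternative called an integrin or any other gene named here, and the number of arrays, with 3 and 4 per label, limits what can be seen. The smallest adjusted p of an integrin was 0.273, for Itgb5 without W3 and K3. In limma 0 genes were called at 0.05 under every alternative run, and 0 at 0.1 over the 7 arrays, the one fit counted at that threshold. Of 180 integrin differences under the 18 alternatives, 23 had turned sign, all of them in Itga1, Itga5, Itga8, Itgb1, Itgb3 and Itgb4, and the causes were not tested. Of 375 such values for the 21 pathway genes, 41 had turned.

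Scaling turned differences near 0. Under quantile normalization Itga1 was 0.0076, Itga2b 0.0079 and Cd81 -0.0155, and 1026 genes did not overlap. Under median centring Itga1 was 0.0508, Itgb1 0.0442, Itga2 0.0317, Itga2b 0.0058, Fn1 0.0267, Fermt2 0.02 and Cd9 0.0367, and 1095 genes did not overlap. The list medians also turned there, to 0.0475 for the 10 integrins, 0.0421 for other integrins, 0.0521 for matrix ligands, 0.02 for adaptors and 0.0108 for surface partners. Under quantile normalization those of other integrins (0.0331) and matrix ligands (0.0093) turned, with array weights that of other integrins (0.0339), and with the mean of probe sets that of matrix ligands (0.0079). With array weights Itga8 was -0.1535, Itga2 0.0532, Lama4 -0.0019, Cd151 -0.0618 and Cd81 -0.0401, and 1310 genes had an unadjusted p under 0.05.

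The replicate numbers are not stated to pair arrays, and deviations of same-numbered arrays from their group means correlated at -0.18, -0.20 and -0.55. No W array went best with the K array of its own number. With the replicate number as a fixed block 225 genes had an unadjusted p under 0.05, and Itga1 was 0.0567, Itgb1 0.0067, Itga2 0.0733, Lama5 0.0167, Cd9 0.0433 and Cd81 -0.05. With a random replicate block 367 genes did, and Fn1 was 0.0135. List medians turned with the fixed block for the 10 integrins (0.03), other integrins (0.0083) and matrix ligands (0.0233). The random block turned that of matrix ligands (0.0075). With either block 0 genes were called.

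Leaving out W3 and K3 together, 3994 genes and 4 integrins did not overlap, 1779 genes and 2 integrins had an unadjusted p under 0.05, and the integrins' median was -0.17. This choice of arrays also makes the labels match the split on the first principal component. Signs turned for Itga1 (0.1167), Itga8 (-0.16), Itgb4 (-0.405), Itga2 (0.1183), Npnt (-0.4917), Cd151 (-0.2783) and Cd81 (-0.0667).

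Leaving out 1 array at a time gave 681 (without K4) to 2544 (without W3) genes without overlap and 295 (without W2) to 1314 (without W3) with an unadjusted p under 0.05. Between 0 and 2 integrins did not overlap, with Itga8 alone without W2 (5.84% of all genes), Itga3 and Itgav without W3 (15.3%) and Itgb5 without K3 (5.52%). From 0 to 1 had an unadjusted p under 0.05, Itgav without W3 (7.9% of all genes) and Itgb5 without K3 (3.96%). The integrins' median ran from -0.15 (without W3) to 0.0512 (without W1). Among those that kept their sign, Itga3 ran from -0.4875 to -0.0825, Itga6 from -0.2267 to -0.0867, Itgav from -0.445 to -0.055, Itgb5 from 0.0867 to 0.5167, Tnc from 0.1125 to 0.4525, Vtn from 0.0333 to 0.23, Itgb2 from -0.7225 to -0.2, Itga2b from -0.0667 to -0.0067, Itgb8 from 0.0667 to 0.1267, Tln1 from 0.0667 to 0.1175, Vcl from -0.135 to -0.0133, Pxn from -0.1125 to -0.05 and Cd47 from -0.2375 to -0.0775. Among those that turned, Itga1 ran from -0.09 to 0.06, Itga5 from -0.02 to 0.0767, Itga8 from -0.17 to 0.345, Itgb1 from -0.1067 to 0.08, Itgb3 from -0.3925 to 0.08 and Itgb4 from -0.22 to 0.2833. Itga2 ran from -0.1425 to 0.1125, Itga4 from -0.0033 to 0.5275, Itga9 from -0.3075 to 0.09, Fn1 from -0.2075 to 0.2225, Col4a1 from -0.0133 to 0.0733, Lama4 from -0.1275 to 0.2475, Lama5 from -0.1833 to 0.0167, Npnt from -0.235 to 0.3467, Fermt2 from -0.1525 to 0.0475, Cd9 from -0.2325 to 0.1175, Cd151 from -0.1775 to 0.2125 and Cd81 from -0.06 to 0.0833.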
